A study of Danio rerio with 4 samples.

Results

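Krüppel-like factors (Klf proteins) are transcription factors that bind GC-rich and CACCC-type DNA through zinc fingers at their carboxyl end, and the related Sp proteins share this binding domain. Klf2 is known as the flow-responsive factor of the vessel wall: shear stress raises it through the kinase cascade MEKK3, MEK5 and ERK5 and the transcription factors of the MEF2 family, and the cerebral cavernous malformation (CCM) proteins restrain it. Klf6 is known in mammals as a factor induced early by injury and stress, in vessels and elsewhere. Zebrafish Klf17, earlier called Biklf or Klf4b, is known from the blood islands, where it takes part in primitive red cell formation, and from the hatching gland.

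The genes described here are 4 Kruppel-like genes, klf2a, klf2b, klf6a and klf17, out of 31716 genes in the table. They were chosen by name for their vascular, stress and erythroid roles. The rule used no measured values, but earlier results of these data were known when it was made. The table names 3 of them in its gene column; klf17 is listed there as klf4b and was found by its gene ID, which the reference of gene names pairs with klf17. RNA came from zebrafish embryos of the strain Tg(fli1a:egfp) at 24 hours post fertilization, in which regulatory sequence of fli1a drives green fluorescent protein (GFP). All 4 libraries carry this transgene, with no other allele and no treatment given. Dissociated and fixed embryos were sorted into GFP-positive cells, labelled endothelial, and GFP-negative cells, labelled non-endothelial, with 2 libraries from each. The driver limits the GFP-positive fraction as a model of endothelium, since fli1a is also active outside vessels.

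The comparison asked which genes distinguish the fraction marked by fli1a:egfp from the rest of the embryo. Levels are the authors' values for a whole fraction in FPKM (read fragments adjusted for the length of the transcript and the size of the library), with 1 value for each gene in each fraction, so no spread between libraries can be given and the depth is unknown. Levels of different genes are per length on this scale, but neighbours in an order of levels cannot be said to differ. The labels do not say whether libraries came from separate clutches, so the p-values speak only of these libraries and their spread may be technical. Where a pair of values is joined by "against", the GFP-positive value comes first. A gene passed when its q in the authors' deposited table, a p-value adjusted over all 7299 tested genes, was under 0.05. RNA of mixed cells was measured, so fewer cells of a type and less RNA per cell cannot be told apart.

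The marker genes show what the sort held. For comparison, 7.18% of all tested genes passed as higher and 7.15% as lower. Of 10 endothelial markers 7 passed as higher in GFP-positive cells and none as lower, and their summed level was 1629 FPKM with GFP and 26.8 FPKM without. The GFP-positive fraction also held blood RNA. Of 22 tested erythroid rows 20 passed as higher, with a summed level over 24 rows of 91453 against 1164 FPKM, and 2 of 5 tested myeloid markers passed as higher, with a summed level of 398 against 2.37 FPKM and mpeg1 and both rows of lcp1 listed at 0 in GFP-negative cells. Globin genes made up most of the erythroid sum, with hbbe3 at 48081 against 531 FPKM. Most of the endothelial sum in GFP-positive cells was stab2, at 911 FPKM. All 5 neural markers, 4 of 5 skeletal muscle markers and 6 of 9 tested epidermal markers passed as lower, and 3 of 4 tested neural crest markers passed as higher and 1 as lower, with a summed level over 5 rows of 146 against 38.6 FPKM. Those higher were prrx1b, alx1 and dlx2a. The crest marker sox10 was the lower gene, at 1.78 against 10.9 FPKM, and foxd3 was not tested, at 0.038 against 0.035 FPKM. The crest markers thus did not share 1 direction.

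Of the 4 genes, 2 were higher in GFP-positive cells by the authors' test, klf2a and klf6a. The erythroid factor gene klf17 had the widest gap between the fractions but did not pass, and klf2b, with nearly equal values, was marked in the authors' table as not tested, which in Cuffdiff stands for too few alignments. The count of 2 among 3 tested genes stands beside 7.18% of all tested genes called higher and 14.3% called in either direction, and none of the 4 was among the 7.15% called lower. In all 3 tested genes the GFP-positive value was the larger. The GFP-negative values of klf2a and klf17, 3.66 and 0.662 FPKM, lay below the highest level among untested Klf and Sp rows, 7.32 FPKM. These 2 genes may thus have been tested only through their GFP-positive values, so the shared direction is not a separate result.

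**Figure D1:**
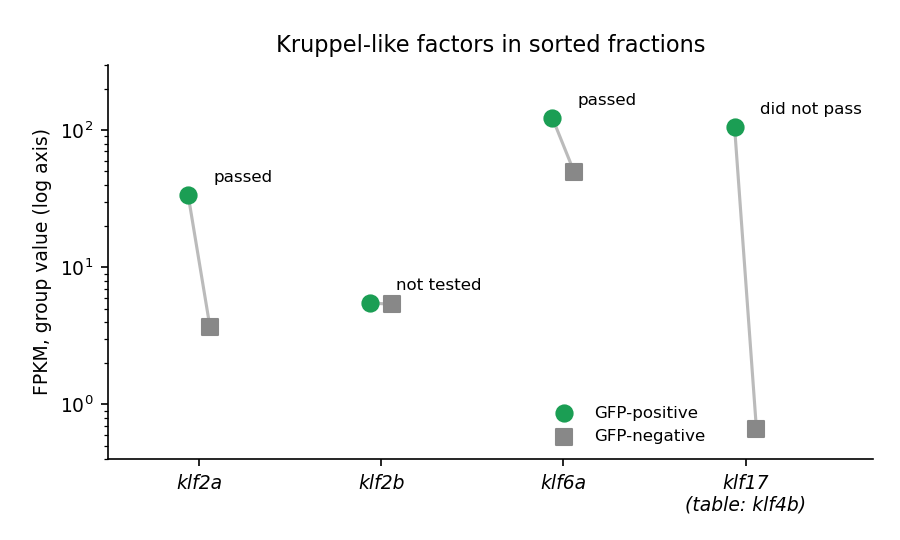
Level of each gene in GFP-positive (green circles) and GFP-negative cells (grey squares), as the authors' group value in FPKM on a log axis, with lines joining the values of a gene and the outcome of the authors' test written above. The gap runs from nearly none for klf2b (5.51 and 5.37 FPKM) to 106 against 0.662 FPKM for klf17, which did not pass.

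The flow-responsive gene klf2a (ENSDARG00000042667, chr22:16044380-16047079 Zv9 build) had a level of 33.6 FPKM among GFP-positive cells, where it was high, and of 3.66 FPKM among GFP-negative cells, where it was low. It was 9.18-fold higher in GFP-positive cells, with p = 0.00015 and q = 0.00246 in the authors' deposited table. Among all tested genes its level lay above 69.7% in GFP-positive cells but above only 5.66% in GFP-negative cells. Genes with too few alignments were not tested, so genes low in both fractions may be missing from this comparison. The share of 5.66% is thus not a rank among all genes and may partly follow from that filter. In the ranking of 36 Klf and Sp rows it was the 5th highest in GFP-positive and the 20th in GFP-negative cells. Endothelial markers (7 of 10 higher, 1629 against 26.8 FPKM summed, none at 0) moved with it, as did the erythroid (20 of 22), myeloid (2 of 5) and neural crest markers (3 of 4, with 1 lower) with the sums given above, and their part in its difference was not tested.

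Its duplicate klf2b (ENSDARG00000040432, chr19:17847487-17853240), known in zebrafish from the epidermis as well as from vessels, had nearly the same level on either side of the sort, 5.51 FPKM with GFP and 5.37 FPKM without. Without a test, whether it differed cannot be said. As listed, the levels of the pair were divided differently between the fractions. The level of klf2a was 6.10 times that of klf2b in GFP-positive cells and 0.683 times that of klf2b in GFP-negative cells, and the difference between the duplicates was not tested. Epidermal markers, summed over 12 rows, came to 297 FPKM with GFP and 1627 FPKM without, and endothelial markers to 1629 and 26.8 FPKM. The part of either in the level of klf2b was not tested.

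The stress-responsive gene klf6a (ENSDARG00000029072, chr24:4216269-4226635) had the highest listed level of the 36 Klf and Sp rows in either fraction, at 123 FPKM among GFP-positive and 49.4 FPKM among GFP-negative cells. In GFP-negative cells klf11b and sp8a lay close below, each at 46.3 FPKM, and cannot be said to differ from it. The level of klf6a was 2.48-fold higher in GFP-positive cells, with p = 0.00105 and q = 0.0116 in the authors' deposited table, and did not pass at a q of 0.01. Unlike klf2a and klf17, it was also well expressed outside the GFP-positive fraction, above 79.1% of tested genes there. The endothelial, erythroid, myeloid and neural crest markers had larger sums in the same fraction, by the counts and values given above, and their part in its difference was not tested. The level of klf6a was 3.65 times that of klf2a in GFP-positive and 13.5 times in GFP-negative cells.

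The blood island gene klf17 (klf4b in the table, ENSDARG00000038792, chr2:33044396-33046563) was high among GFP-positive cells, at 106 FPKM, and close to absent among GFP-negative cells, at 0.662 FPKM. In GFP-positive cells it was the 2nd most abundant Klf or Sp gene, and in GFP-negative cells the 31st of 36. The fold was 159.6 in the authors' deposited table, with p = 0.0882 and q = 0.311, so the difference did not pass. On the log2((FPKM + 1) ratio) scale, which understates the change of low genes, its value of 6.004 exceeded that of 99.6% of tested genes. Erythroid genes (20 of 22 higher, 91453 against 1164 FPKM summed and mostly globin, none at 0), myeloid markers (2 of 5, 398 against 2.37 FPKM), endothelial markers (7 of 10) and neural crest markers (3 of 4, with 1 lower) had larger sums in the same fraction, and their part in the value of klf17 was not tested. The hatching gland markers came to 302 against 282 FPKM summed over 3 rows, and neither of the 2 tested passed. Most of either sum was xbp1, and both hatching enzyme genes had the smaller value in GFP-positive cells. The hatching enzyme gene he1a was at 18.5 against 23.3 FPKM (q = 0.884 in the authors' deposited table) and xbp1, a secretory pathway regulator active in many tissues, at 278 against 251 FPKM (q = 0.895 in the authors' deposited table). The other hatching enzyme gene, he1b, was not tested and had 4.82 against 7.14 FPKM.

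The call of klf17 was set beside those of other tested genes with large folds, low GFP-negative values or large test statistics. These sets were chosen after the values were seen. Of 100 tested genes with a GFP-negative value above 0 and under 1 FPKM and a GFP-positive value of at least 10 FPKM, klf17 among them, 16 passed and 84 did not. Their p-values in the authors' deposited table ran from 5e-05 to 0.268, with a median of 0.187, and 40 of the 99 genes other than klf17 had a p as small as its own or smaller. Of the 16 other tested genes above 0 in GFP-negative cells with a fold at least as large as that of klf17, 0 passed. Of 128 genes that were at least 10-fold higher from a GFP-negative value of at least 1 FPKM, 96 passed. Of 61 tested genes listed at 0 in GFP-negative cells, 42 passed. Over all tested genes 7.18% were called higher. The part of the low GFP-negative value in the call of klf17 was not tested. Ranked by the authors' test statistic in place of the fold, 95 of 107 other genes higher in GFP-positive cells with a statistic at least as large as that of klf17 passed, and 12 did not. A gene that misses the threshold is not shown to be equal in the fractions.

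**Figure D2:**
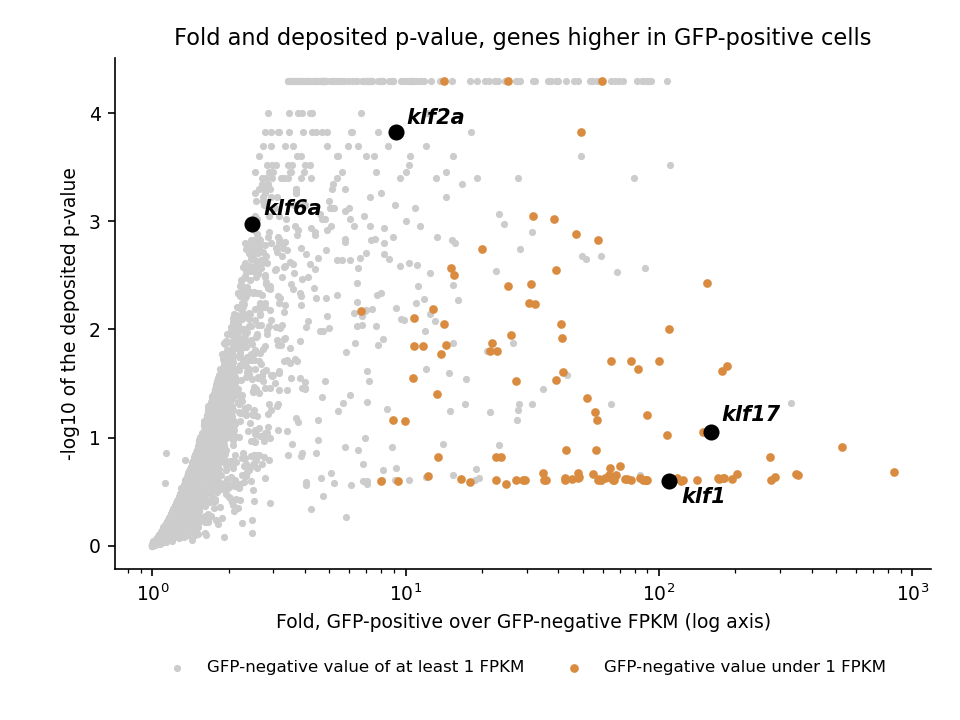
Fold of GFP-positive over GFP-negative FPKM (log axis) against the negative log10 of the p-value in the authors' deposited table, for tested genes with a larger GFP-positive value and a GFP-negative value above 0; orange points have a GFP-negative value under 1 FPKM. klf2a and klf6a passed at folds of 9.18 and 2.48, while klf17 and klf1 lie at the right among orange points with larger folds and larger p-values.

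The whole family was counted with klf2a, klf2b, klf6a and klf17 included. Of 22 Klf rows 10 were tested, and 4 passed as higher and none as lower. Of 14 Sp rows 7 were tested, and none passed as higher and 2 as lower. Over all tested genes 7.18% were called higher and 7.15% lower. The median log2((FPKM + 1) ratio) was 1.35 over tested Klf genes and -0.35 over tested Sp genes, beside 0.05 over all tested genes. Without klf2a, klf2b, klf6a and klf17, 18 Klf rows remained, of which 7 were tested and 2 passed as higher. The median over these tested rows was 0.33. The remaining 19 rows of the family were not tested, and the highest level in them was 7.32 FPKM, for klf13 in GFP-positive cells. The medians leave out these rows. The 12 Klf rows among them had ratios on both sides, from klf12a with 5.06 against 2.48 FPKM to klf7a with 0.792 against 4.27 FPKM. Among tested Klf rows, klf17, klf1, klf2a and klf7b had GFP-negative values of 0.662, 0.247, 3.66 and 6.89 FPKM, below 7.32 FPKM. They may have been tested only through their GFP-positive values, so the median of 1.35 does not describe the Klf genes as a whole.

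Besides klf2a and klf6a, klf3 and klf7b were higher in GFP-positive cells. The gene klf3, whose mouse counterpart encodes a repressor active in red cell maturation, had 40.7 against 8.38 FPKM (q = 0.0178 in the authors' deposited table). The gene klf7b, whose mammalian counterpart is known from neurons, had 19.8 against 6.89 FPKM (q = 0.00488 in the authors' deposited table). The erythroid factor gene klf1, listed as klfd and known in mammals as the activator of adult beta-globin, had 27.2 FPKM with GFP and 0.247 FPKM without. Like klf17 it did not pass at a large fold, 109.8, with p = 0.253 and q = 0.562 in the authors' deposited table, and its locus in that table is shared with other genes.

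Several Klf genes had similar values in the fractions and did not pass. The TGF-beta-inducible factor genes klf11b and klf11a had 48.0 against 46.3 FPKM and 31.0 against 24.4 FPKM, KLF8 had 13.7 against 12.1 FPKM and KLF16 had 27.2 against 39.3 FPKM. The Sp genes that passed as lower were the paralogues sp8a and sp8b, known from limb and neural patterning. The level of sp8a was 5.69 FPKM with GFP and 46.3 FPKM without (q = 0.000958 in the authors' deposited table). The level of sp8b was 1.04 against 34.2 FPKM (q = 0.00892 in the authors' deposited table). The general factor genes sp1, sp3a, sp3b and sp4 ranged from 9.82 to 21.004 FPKM with GFP and from 9.66 to 27.0 FPKM without, and did not pass.

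Together klf2a, klf2b, klf6a and klf17 made up 54.0% of the summed level of all Klf rows in GFP-positive cells, which was 496 FPKM, and 26.4% in GFP-negative cells, which was 223 FPKM. For klf17 alone the share was 21.3% against 0.296%, for klf2a 6.78% against 1.64%, and for klf6a 24.7% against 22.1%. The share of klf2b was 1.11% against 2.40%. These shares come from 1 value per gene and fraction and were not tested.

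**Figure D3:**
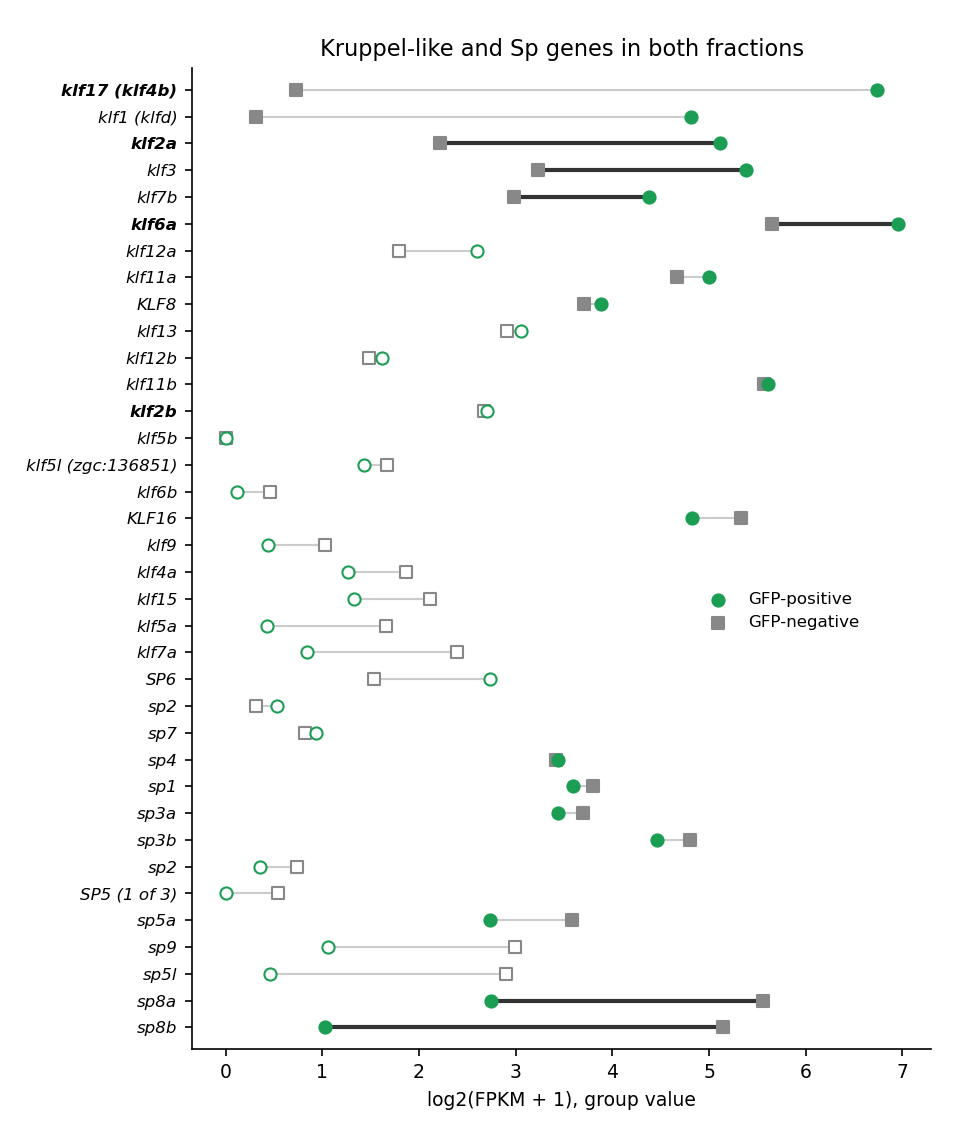
Level of each Klf and Sp row in GFP-positive (circles) and GFP-negative cells (squares) as log2(FPKM + 1) of the authors' group value; open symbols were not tested, dark lines mark genes that passed, and names in bold are klf2a, klf2b, klf6a and klf17. Dark lines run to the right, toward the GFP-positive value, for klf2a, klf3, klf7b and klf6a, and to the left for sp8a and sp8b.

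Of 9 tested signalling genes upstream of Klf2, 1 passed as higher, 1 as lower and 7 did not pass, beside 7.18% called higher and 7.15% called lower over all tested genes. Their median log2((FPKM + 1) ratio) was 0.0059 beside 0.05 over all tested genes. This list also does not follow 1 sign of action, since it holds genes of the CCM proteins, which restrain Klf2. Named after their values were seen, these were krit1 (21.2 against 15.9 FPKM) and ccm2 (19.4 against 19.4 FPKM). The others were pdcd10a (23.8 against 29.1 FPKM) and pdcd10b (30.5 against 39.2 FPKM), and none of the CCM genes passed. The genes that passed both encode MEF2 factors, the DNA-binding end of the shear stress cascade. The level of mef2cb was 26.7 FPKM with GFP and 8.75 FPKM without (q = 0.00892 in the authors' deposited table). For mef2d it was 10.2 against 36.8 FPKM (q = 0.00177 in the authors' deposited table). Of the 9 tested, 5 had the larger value with GFP and 4 without. The widest gap among them was that of rasip1, named after its values were seen, with 27.5 against 0.161 FPKM. That gene did not pass, with q = 0.553 in the authors' deposited table. Another 8 rows of the list were not tested, among them piezo1, pkd2, trpv4 and the kinase genes of the cascade. The gene of MEKK3, map3k3, had 8.30 against 4.46 FPKM. That of MEK5, map2k5, had 3.35 against 3.51 FPKM, and that of ERK5, mapk7, had 4.43 against 5.62 FPKM. The counts thus do not cover these kinases.

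Over all tested genes 7.18% were called higher and 7.15% lower. Of 10 tested genes reported as responsive to flow or to Klf2, 5 passed as higher, 1 as lower and 4 did not pass. Their median log2((FPKM + 1) ratio) was 2.08. The 5 were the vascular matrix gene egfl7 with 206 against 7.50 FPKM, the VEGF receptor gene kdrl with 52.4 against 2.13 FPKM, the angiopoietin receptor gene tek with 18.9 against 0.606 FPKM, the chemokine receptor gene cxcr4a with 49.5 against 9.21 FPKM and, named after its values were seen, the BMP receptor gene acvrl1 with 10.4 against 2.14 FPKM. Of these, egfl7, kdrl and tek also stand among the endothelial markers. The list does not follow 1 sign of Klf2 action, since Klf2 is known in mammals to repress the VEGF receptor gene and flow to lower cxcr4a in zebrafish. The Notch receptor gene notch1b was lower, with 8.92 against 33.5 FPKM. Named after their values were seen, hmox1a (25.1 against 1.64 FPKM) and cav1 (26.6 against 16.2) did not pass. Nor did s1pr1 (58.6 against 74.2) or fn1b (1.11 against 7.45). Another 5 rows of the list were not tested, so the median leaves them out. Of those, ece1 had the larger value with GFP (8.09 against 5.57 FPKM). The smaller value was with GFP for vegfaa (7.31 against 9.61), edn1 (2.85 against 6.87), nrg1 (0.650 against 2.65) and wnt9b (0.229 against 1.77). With only rows alone in their locus, 3 passed as higher.

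The erythroid list was almost wholly higher. Of 22 tested rows 20 passed as higher, none as lower and 2 did not pass. Over all tested genes 7.18% were called higher and 7.15% lower. The median log2((FPKM + 1) ratio) of the tested erythroid rows was 5.24. The embryonic beta-globin gene hbbe1.2 had 3732 against 34.6 FPKM, and the erythroid master regulator gene gata1a had 134 against 2.73 FPKM. Reads can be shared among globin copies, so their division is uncertain. The 2 that did not pass, named after their values were seen, were nfe2, a subunit of an erythroid transcription factor, with 13.3 against 0.384 FPKM, and the membrane skeleton gene epb41b with 30.02 against 0.155 FPKM. Their GFP-negative values were under 1 FPKM, as was that of the blood repressor gene gfi1b, also named after its values were seen, which passed with 18.6 against 0.397 FPKM (q = 0.0137 in the authors' deposited table).

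Immediate early and stress genes were set beside klf6a. Of 26 tested, 5 passed as higher, 2 as lower and 19 did not pass, beside 7.18% called higher and 7.15% called lower over all tested genes, with a median log2((FPKM + 1) ratio) of 0.33, against 1.296 for klf6a itself. Their summed level over 28 rows came to 5397 FPKM with GFP and 5107 FPKM without. Those higher included the AP-1 subunit gene fosl2 with 58.5 against 17.0 FPKM, the cytokine feedback inhibitor gene socs3a with 194 against 61.9 FPKM, the growth factor gene hbegfa with 43.9 against 16.2 FPKM and the survival gene mcl1a with 55.5 against 21.7 FPKM. The small heat shock protein gene hspb1 and the Myc gene myca were lower, the former at 13.6 against 97.1 FPKM and the latter at 14.6 against 44.2 FPKM. The early growth response gene egr1 (132 against 121 FPKM) and the AP-1 gene jun (409 against 297 FPKM), named after their values were seen, did not pass.

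**Figure D4:**
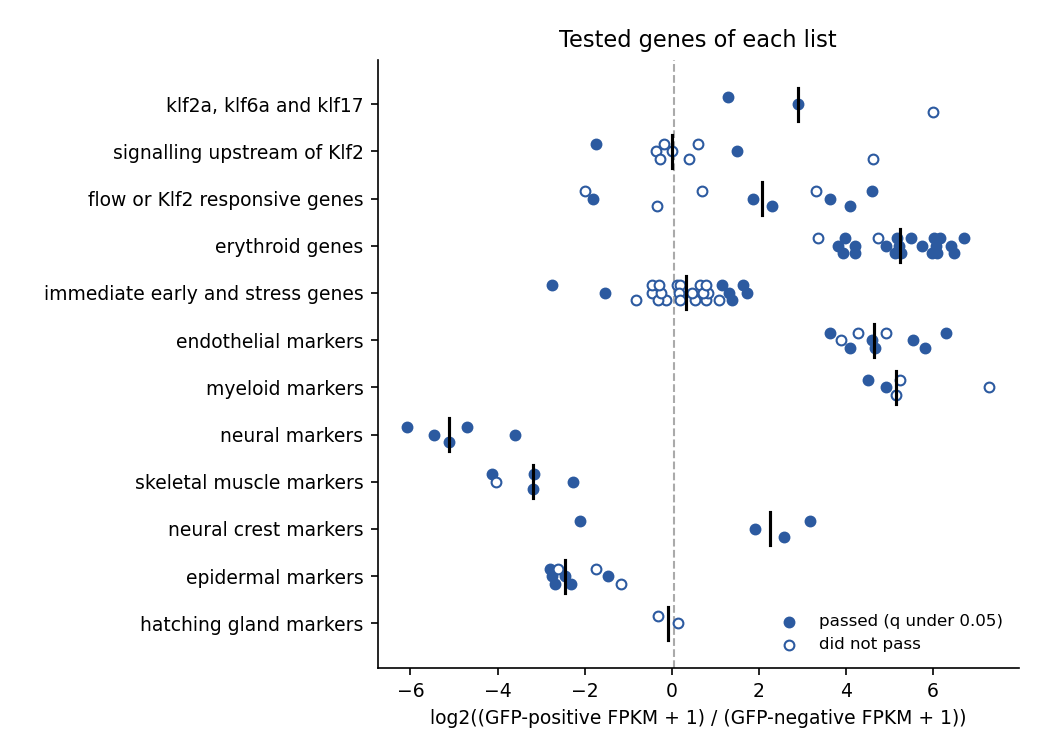
The log2((GFP-positive FPKM + 1)/(GFP-negative FPKM + 1)) of each tested gene by list, with filled points for genes that passed, bars for list medians and a dashed line for the median of all tested genes (0.05). In the top row klf6a (1.296) lies within the range of the immediate early and stress genes, and klf2a (2.89) and klf17 (6.004) lie farther to the right.

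Genes with the most similar pair of levels were taken as the 3 tested genes nearest to each Kruppel-like gene by distance in log2(FPKM + 1) over the 2 group values. This match largely sets direction and fold, so the calls of the nearest genes are no separate result. For klf2a these were TPC3 (33.9 against 3.30 FPKM), lrrc58b (37.5 against 3.54 FPKM) and blvra (31.5 against 3.10 FPKM). All 3 passed as higher. For klf6a they were cdk1 (127 against 52.9 FPKM), cyr61 (111 against 52.1 FPKM) and glula (131 against 44.6 FPKM). Of these, cyr61 did not pass, with q = 0.0510 in the authors' deposited table. For klf17 they were gpr182 (109 against 0.889 FPKM), a gene listed as MFAP4 (4 of 14) (124 against 0.717 FPKM) and tnfaip2b (89.4 against 0.502 FPKM), and like klf17 none of the 3 passed. Those nearest to klf2b were flj11011l (6.04 against 5.79 FPKM), NAPA (2 of 2) (6.52 against 5.06 FPKM) and C4H12orf45 (6.57 against 5.71 FPKM), and none of them passed.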

How the data were processed

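RNA-seq was made from 4 libraries of sorted cells, by the MARIS method for fixed cells and the TotalScript kit, per the labels' protocols. TopHat2 2.0.9, Cuffdiff 2.1.1 and the Zv9 build are named in the submitters' processing notes; their settings and the strand setting are not given in the sources used here. Per the file headers, the deposited table gives FPKM per gene and fraction, a log2 ratio, a test statistic (a score), a p-value and a q-value. FPKM columns were taken as group values from their names. The sign of the deposited log2 ratio was turned, so that values above 0 are higher in GFP-positive cells. The deposited q-value matched a Benjamini-Hochberg adjustment over tested genes within 5.26e-07. The base from which locus starts are counted is not given; no other row overlaps the loci of the 4 genes. Of the other rows, 24304 were marked NOTEST and 113 LOWDATA.

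No new test was run. Calls, list counts and ratios with 1 FPKM added were computed in Python 3.11.15 with pandas 2.3.3, and the code was tested on simulated data. The genes and lists were chosen with earlier results of these data known. Named genes are the family, up to 4 called genes of each list and direction by log2 ratio, fixed cell type markers, and the 3 nearest genes by level. Some lists, the epidermal and hatching gland ones included, also held genes outside those fixed markers, xbp1 among them. Alternatives were a q of 0.01, an absolute log2 ratio of at least 1, minimum levels of 1 and 5 FPKM, pseudocounts of 0.1 and 0.01, centring and rows alone in their locus.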

Additional observations from a re-analysis of the deposited data

How the results depend on the processing

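At a q of 0.01, klf2a alone of the 4 genes was still called higher (1 in place of 2). The log2((FPKM + 1) ratio) of klf6a is 1.296 there as well, but its q of 0.0116 in the authors' deposited table misses that threshold. At the same threshold 2 Klf or Sp genes, 3 flow or Klf2 responsive genes and 3 immediate early and stress genes were called higher, and over all tested genes 301 were called higher and 329 lower. Among the cell type markers, 4 endothelial markers in place of 7 were called higher there. The lower calls fell to 3 from 6 among epidermal markers and to 0 from 1 among neural crest markers. With rows alone in their locus, 3 flow or Klf2 responsive genes and 4 endothelial markers were called higher. The median log2 ratio of the signalling genes changed sign, to -0.0076 after centring and -0.18 with rows alone in their locus. That of the hatching gland markers became 0.15 in such rows, which is the value of xbp1, the only tested gene left. Fewer genes enter when rows alone in their locus are used, and centring subtracts 0.014. The calls of klf2a and klf17 were the same under each alternative run, but most alternatives could not change them. Pseudocounts and centring do not enter the call of a single gene, and rows alone in their locus were not run for single genes. The minimum levels of 1 and 5 FPKM kept 7299 and 7298 tested genes. A stricter q or a minimum ratio can only remove calls, so klf17 could not gain one there. Matching klf17 by its gene ID and list symbols through reference names were choices made after seeing the data. By the gene column alone 2 genes were called higher. Reference names gave 21 erythroid genes called higher, and 1 epidermal marker in place of 0. No paired analysis was possible because the table holds 1 value per gene and fraction, and leaving out single libraries was not run for the same reason.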

Other observations

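The nearest tested genes on each side of klf17 were lower in GFP-positive cells, beside 7.15% called lower over all tested genes. The glycine transporter gene slc6a9, 17.9 kb away in the Zv9 loci of the table, had 7.67 FPKM with GFP and 37.3 FPKM without (q = 0.0107 in the authors' deposited table), and rnf220a, 109 kb away on the other side, had 10.1 against 30.7 FPKM (q = 0.00594 in the authors' deposited table). Beside klf2a, the endocytosis gene eps15l1a, 6.55 kb away, had 18.6 against 16.5 FPKM and did not pass. On its other side fam32al, 176 kb away, had 101 against 99.1 FPKM and did not pass either. The nearest tested genes beside klf6a, fzd8a and wdr37, lay 299 and 604 kb away and did not pass, with 12.2 against 18.5 FPKM and 8.21 against 10.96 FPKM. Those beside klf2b, rps18 and ap1m1, lay 456 and 316 kb away and did not pass either.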
